A study of Arabidopsis thaliana with 8 samples.

Results

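The psaI-ycf4-cemA-petA operon of the plastid genome is described here through its Hi-C contacts with itself and with every other stretch of the plastid chromosome. Hi-C joins DNA ends that lie close to each other and counts the joined pairs by sequencing. The operon was taken as the 4 bins of 1 kb that cover 59001 to 63000 on Pt, the plastid chromosome of TAIR10, out of 155 bins, and its contacts as the 614 of 12090 bin pairs that hold at least 1 of these bins. The choice used position alone and no measured value. Bins are named by their first base: bin 59001 holds psaI and the start of ycf4, bin 60001 holds ycf4 and cemA, bin 61001 holds cemA and petA, and bin 62001 holds petA. The libraries came from chloroplast membrane preparations of leaves of wild-type Arabidopsis thaliana, ecotype Col0, grown for 14 days. In 4 crosslinked libraries chloroplasts received 4% formaldehyde over 4 h and, over 45 min, 5 mM EGS, a crosslinker that reacts with amines. The 4 libraries they were set against were labelled as non-crosslinked and serve in the series as negative controls. Only the treatment label separates the groups, since one protocol description covers every library. Nothing in the labels says that the replicates of a group came from separate plants, so p-values measure the spread between these libraries.

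In seed plants the 4 genes are transcribed together, and all 4 encode proteins of chloroplast membranes. PsaI is a small subunit of photosystem I, Ycf4 helps to assemble photosystem I, CemA is a protein of the inner envelope, and PetA is cytochrome f, the haem-binding subunit of the cytochrome b6f complex that passes electrons between the photosystems. The title of the series names membrane association of transcribed genes as its subject, and the contact map asks which stretches of plastid DNA lie near each other at the membrane. The plastid genome has a large single copy region, which holds the operon, and a small single copy region, with a copy of the inverted repeat between them on either side.

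The crosslinked libraries held 543800, 520907, 368149 and 351828 contacts in replicates 1 to 4, and the non-crosslinked libraries 708524, 618672, 357017 and 408539. Contacts of the operon numbered 13237, 11770, 8353 and 7724 in crosslinked libraries, against 16996, 13776, 8538 and 9968 in non-crosslinked libraries. These were 2.20 to 2.43% of a crosslinked library and 2.23 to 2.44% of a non-crosslinked library, so the groups overlapped in the share of contacts that touched the operon. Non-crosslinked replicates 3 and 4 stood apart from the rest. Contacts over 5 kb made up 9.83, 5.63, 4.80 and 3.13% of the crosslinked libraries, against 7.16, 5.25, 0.744 and 1.04% of the non-crosslinked libraries. Many of the results that rest on contacts over 5 kb are therefore also given without these 2 libraries.

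Contacts between neighbouring bins inside the operon rose with crosslinking in all 3 pairs, while of the pairs that cross its 2 borders 1 fell and 1 did not pass the test. The largest increase lay at the start of the operon, between the psaI-ycf4 bin 59001 and the ycf4-cemA bin 60001. This pair had 270, 242, 195 and 159 contacts in crosslinked libraries, against 109, 100, 38 and 49 in non-crosslinked libraries. Every crosslinked library lay above every non-crosslinked library. Its level was 499 ± 42.2 CPM (counts scaled to a common library size; SD, n = 4) in crosslinked and 147 ± 29.3 CPM in non-crosslinked libraries, a log2 change of 1.70 ± 0.142 (SE; edgeR quasi-likelihood test, adjusted p = 9.64e-06). Among the 155 pairs of neighbouring bins on the circle this was increase number 4 by size, and the pair held the level number 11 from the bottom in non-crosslinked libraries and number 26 from the bottom in crosslinked libraries.

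The pair of bins 61001 and 62001, which lies within petA and the end of cemA, had 508, 505, 349 and 294 contacts in crosslinked libraries, against 302, 272, 111 and 151 in non-crosslinked libraries. Its log2 change was 1.15 ± 0.117 (edgeR, adjusted p = 1.86e-05), with 948 ± 73.9 CPM in crosslinked and 421 ± 66.1 CPM in non-crosslinked libraries. The middle pair, bins 60001 and 61001 across cemA, had 341, 319, 253 and 208 contacts in crosslinked libraries, against 252, 169, 118 and 130 in non-crosslinked libraries. In CPM the groups did not overlap for either pair, and the middle pair rose least of the 3, by a log2 change of 0.89 ± 0.110 (edgeR, adjusted p = 4.64e-05).

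At the border on the psaI side the pair of bin 58001, which holds accD for a subunit of acetyl-CoA carboxylase, and bin 59001 had 783, 783, 606 and 487 contacts in crosslinked libraries, against 1273, 898, 717 and 996 in non-crosslinked libraries. It fell by 0.44 on the log2 scale (SE 0.136; edgeR, adjusted p = 0.0151), although the CPM of the groups overlapped. At the other border the pair of the petA bin 62001 and bin 63001, which holds psbJ, psbL and psbF for small subunits of photosystem II, had 574, 562, 400 and 380 contacts in crosslinked libraries, against 635, 501, 319 and 444 in non-crosslinked libraries. The groups overlapped here, and the log2 change of 0.14 ± 0.0950 did not pass the test (edgeR, adjusted p = 0.204). It passed without non-crosslinked replicate 4 (0.22, edgeR, adjusted p = 0.0247) and on library totals without TMM (0.27, edgeR, adjusted p = 0.0229). The same totals without TMM ended the call of the accD border pair (-0.31, edgeR, adjusted p = 0.0553). Crosslinking raised neighbouring pairs over much of the genome: 70.3% of the 155 were called, 61.9% higher and 8.39% lower, with a median log2 change of 0.45. The 3 of 5 called higher and the 1 of 5 called lower for the operon are to be read against those shares.

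Contacts of a bin with itself fell in 3 of the 4 operon bins. Bin 60001 had 1783, 1679, 1217 and 1220 such contacts in crosslinked libraries, against 2760, 2411, 1695 and 1854 in non-crosslinked libraries. It fell by 0.44 on the log2 scale (SE 0.0759; edgeR, adjusted p = 0.000402). Bin 61001 had 2505, 2659, 1835 and 1923 in crosslinked libraries, against 4016, 3494, 2530 and 2803 in non-crosslinked libraries, and fell by 0.41 (SE 0.0873; edgeR, adjusted p = 0.00193). Bin 62001 had 1853, 1825, 1292 and 1367 in crosslinked libraries, against 2921, 2508, 1687 and 1986 in non-crosslinked libraries, and fell by 0.39 (SE 0.0749; edgeR, adjusted p = 0.00083). In CPM the groups did not overlap at these 3 bins. The psaI bin 59001 had 1589, 1469, 1147 and 1074 in crosslinked libraries, against 2039, 1702, 1182 and 1322 in non-crosslinked libraries, and its groups overlapped (log2 change -0.11 ± 0.0727, edgeR, adjusted p = 0.198). Over the genome 49.7% of the 155 self pairs were called lower and 5.81% higher, with a median log2 change of -0.21, and 54.2% had groups that did not overlap, so 3 of 4 lower is in the direction of the map at large. The table does not tell joined ends within a bin apart from fragments that were never cut.

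**Figure D1:**
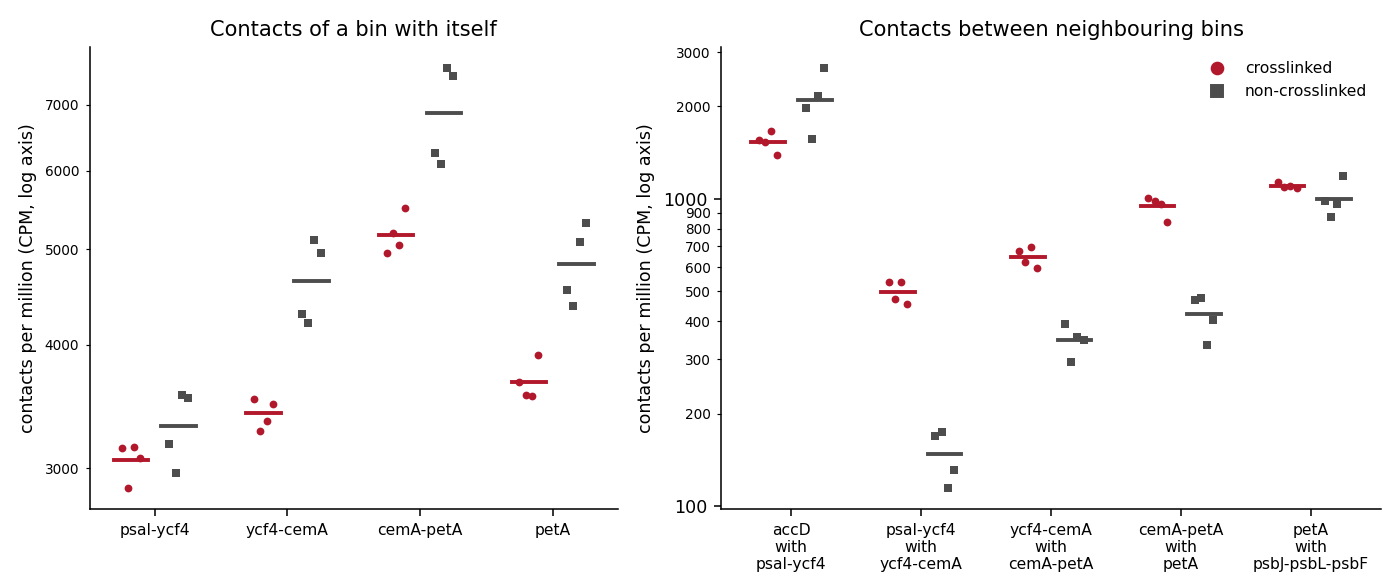
Scaled contacts (CPM) of the 9 tested operon pairs, on log axes, with 1 point per library, a line at each group mean and the crosslinked libraries left of the non-crosslinked ones. Left, the 4 bins with themselves, and right, the 5 neighbouring pairs. The 3 pairs inside the operon lie higher in all 4 crosslinked libraries than in any non-crosslinked library, while the groups overlap at both border pairs.

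These 9 were the operon pairs that passed the filter on low counts, out of 614. Of them 7 were called, 3 higher and 4 lower, against 61.4% called among the 381 pairs tested over the genome (34.4% higher, 27.0% lower). Without non-crosslinked replicates 3 and 4 all 7 calls held and the psaI-ycf4 to ycf4-cemA pair rose by 1.42 on the log2 scale. All calls depend on the scale: with libraries scaled on their contacts over 5 kb, 0 of the 9 was called (edgeR; 4 had an unadjusted p under 0.05, all of them decreases), and the increases of the middle pair and of the 61001 to 62001 pair turned to -0.74 and -0.32. That scaling moved the median of all tested pairs to -1.58, and the 3 pairs inside the operon stayed above that median.

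The contrast between the inside and the borders does not depend on such a scale, because it compares counts within a library. It was chosen after the pair values were seen. The 3 pairs inside the operon against the 2 border pairs gave log2 ratios of -0.28, -0.34, -0.34 and -0.39 in crosslinked libraries, against -1.52, -1.37, -1.96 and -2.13 in non-crosslinked libraries. Every crosslinked library stood above every non-crosslinked library, and the crosslinked libraries lay close together. The means were -0.34 ± 0.0462 in crosslinked and -1.74 ± 0.355 in non-crosslinked libraries (SD, n = 4), a difference of 1.41 (two-sided exact permutation p = 0.0286, which is the lowest value possible with 4 against 4 libraries). With the petA-side border alone the difference was 1.05, and without non-crosslinked replicates 3 and 4 it was 1.11. For the 19 other blocks of 4 bins that tile the large single copy region, the same difference had a median of 0.12 and reached from -1.22 to 1.82, and 18 of the 19 lay below the operon. In non-crosslinked libraries the operon stood 1.82 below the median block on the log2 scale, against 0.68 below in crosslinked libraries. This shift relative to the other blocks had an exact permutation p of 0.0286 and an adjusted p of 0.0857 over the 9 measures compared with those blocks. It did not pass, but no measure could have passed unless most of the 9 had this lowest possible p. The adjusted value therefore does not decide on this measure alone.

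Summed over all other bins, contacts rose at 3 of the 4 operon bins, with the largest estimate at the ycf4-cemA bin and the smallest at the petA bin. The psaI bin did not pass the test. Bin 60001 had 1434, 1056, 766 and 523 contacts with other bins in crosslinked libraries, against 1123, 686, 200 and 242 in non-crosslinked libraries. Its level was 2584 ± 326 CPM in crosslinked and 1496 ± 510 CPM in non-crosslinked libraries, with no overlap and a log2 change of 0.77 ± 0.238 (edgeR, adjusted p = 0.00541), the increase number 7 of 155 bins. Bin 61001 followed with 0.59 ± 0.174 (edgeR, adjusted p = 0.00358) and bin 62001 with 0.32 ± 0.115 (edgeR, adjusted p = 0.0163), in both with no overlap between groups. The psaI bin 59001 had 1839, 1449, 1085 and 814 contacts in crosslinked libraries, against 1925, 1403, 787 and 1087 in non-crosslinked libraries. Its groups overlapped (log2 change -0.16 ± 0.0949, edgeR, adjusted p = 0.146). Over all 155 bins 48.4% were called, 22.6% higher and 25.8% lower, and 45.2% had groups that did not overlap. Without non-crosslinked replicates 3 and 4 the same 3 bins were called, with log2 changes of 0.42, 0.31 and 0.24 from bin 60001 to bin 62001. The call of bin 62001 was lost without crosslinked replicate 1 (0.28, edgeR, adjusted p = 0.0647) or replicate 2 (0.32, edgeR, adjusted p = 0.0504).

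What these totals consist of differed between the bins. Of the contacts of the psaI bin with other bins, 53.1 ± 7.40% in crosslinked and 78.2 ± 15.2% in non-crosslinked libraries were with its accD neighbour (SD, n = 4). Its ycf4-cemA neighbour held 17.2 ± 2.05% in crosslinked and 5.53 ± 1.17% in non-crosslinked libraries. In non-crosslinked replicates 3 and 4 the accD neighbour held 91.1 and 91.6% of them. The ycf4-cemA bin had no such dominant neighbour in crosslinked libraries: 24.4 ± 4.84% in crosslinked and 15.9 ± 4.78% in non-crosslinked libraries lay with the psaI bin. With bin 61001 lay 31.7 ± 6.63% in crosslinked and 39.9 ± 19.1% in non-crosslinked libraries. For the petA bin 62001 the psbJ side held 39.3 ± 6.29% in crosslinked and 55.4 ± 16.4% in non-crosslinked libraries, and the cemA side 33.5 ± 3.85% in crosslinked and 22.5 ± 2.16% in non-crosslinked libraries.

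**Figure D2:**
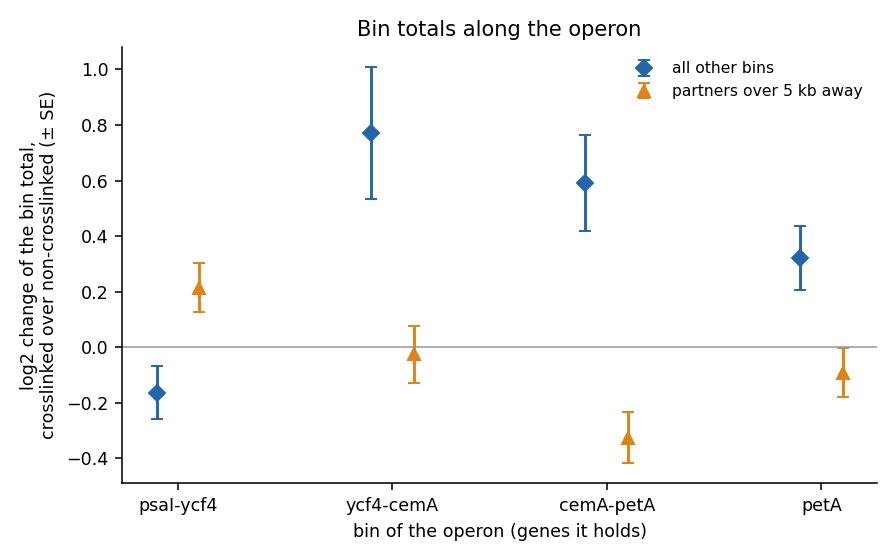
Log2 change of crosslinked over non-crosslinked libraries for each operon bin, with bars of 1 SE. Diamonds are contacts with all other bins and triangles contacts with partners over 5 kb away, each from its own fit. Contacts with all other bins rise at the last 3 bins, while contacts over 5 kb rise at the psaI-ycf4 bin and fall at the cemA-petA bin.

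At 2 to 5 kb the operon had 29 bin pairs, and the counts per pair were small. Together they held 278, 179, 122 and 72 contacts in crosslinked libraries, against 164, 82, 8 and 15 in non-crosslinked libraries. To set them against longer distances within a library, the contacts per bin pair at 2 to 5 kb were divided by those per bin pair over 5 kb, a ratio added after the counts were seen. It was 2.01, 2.30, 2.59 and 2.65 in crosslinked libraries, against 1.29, 0.994, 1.19 and 1.37 in non-crosslinked libraries. All crosslinked libraries lay above all non-crosslinked ones, among which a pair 2 to 5 kb apart joined about as often as a far pair. The means were 2.38 ± 0.295 in crosslinked and 1.21 ± 0.161 in non-crosslinked libraries (SD, n = 4), a difference of 1.17 (two-sided exact permutation p = 0.0286). The difference was 1.01 within replicates 1 and 2, 1.34 within replicates 3 and 4, and 1.24 without non-crosslinked replicates 3 and 4. The 19 other blocks of the large single copy region had a median difference of 1.06, and 10 of them lay below the operon, so the operon stood in the middle of them.

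None of the 29 pairs had enough counts for the main fit. In the fit of replicates 1 and 2 alone 4 of them were tested and 3 called higher, against 69.0% called higher and 2.33% lower among the 129 pairs of that distance tested over the genome, with a median log2 change of 1.36. Bins 62001 and 64001, which join petA to psbF and psbE, had 15, 13, 7 and 5 contacts in crosslinked libraries, against 4, 1, 0 and 0 in non-crosslinked libraries (log2 change 1.95 ± 0.443, edgeR, adjusted p = 0.00273). Bins 60001 and 62001, at either end of cemA and petA, had 20, 13, 2 and 4 in crosslinked libraries, against 6, 1, 0 and 0 in non-crosslinked libraries. Bins 61001 and 64001 had 11, 11, 6 and 5 in crosslinked libraries, against 5, 2, 1 and 0 in non-crosslinked libraries. In these 3 pairs non-crosslinked replicates 3 and 4 held at most 1 contact each.

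By distance class, neighbouring bins held 18.7, 20.5, 21.6 and 19.8% of the operon's contacts in crosslinked libraries, against 15.1, 14.1, 15.3 and 17.8% in non-crosslinked libraries. The groups did not overlap (difference 4.58 percentage points, exact permutation p = 0.0286), yet none of the 5 classes passed after adjustment over the classes (adjusted p = 0.0952 here). No class could have passed unless most of the 5 had this lowest possible p, so the adjustment does not decide on a single class. The share within a bin was 65.3 ± 5.69% in crosslinked and 76.4 ± 6.32% in non-crosslinked libraries (exact permutation, adjusted p = 0.0952). The share at 2 to 5 kb was 1.50 ± 0.478% in crosslinked and 0.451 ± 0.409% in non-crosslinked libraries (exact permutation, adjusted p = 0.0952). At 6 to 20 kb it was 3.74 ± 1.56% in crosslinked and 1.98 ± 1.78% in non-crosslinked libraries, and over 20 kb 9.30 ± 4.22% in crosslinked and 5.64 ± 4.97% in non-crosslinked libraries, with ranges that overlapped. Without non-crosslinked replicates 3 and 4 the difference at 6 to 20 kb was 0.238 percentage points, and over 20 kb it turned to -0.58 percentage points. The 19 other blocks of the large single copy region shifted the same way. Their median differences were 3.58 percentage points for neighbouring bins, -7.90 within a bin (operon -11.0) and 0.923 at 2 to 5 kb (operon 1.05). Of the 19, 14, 3 and 13 lay below the operon in these classes.

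**Figure D3:**
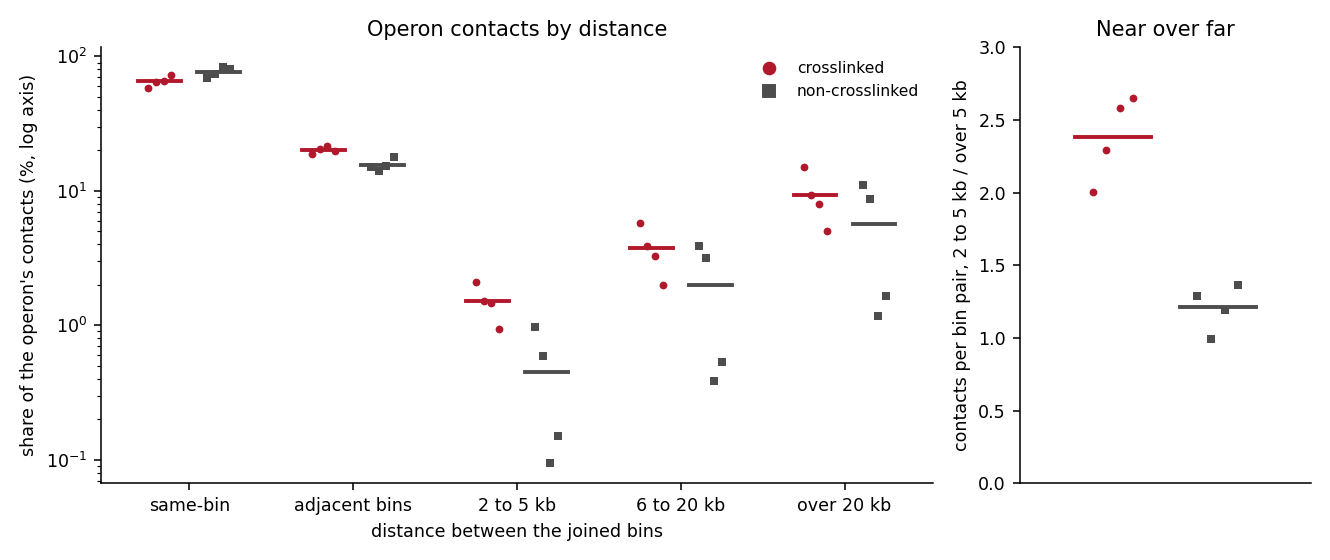
Left, the share of the operon's contacts in 5 distance classes, in percent on a log axis. Right, contacts per bin pair at 2 to 5 kb over those per bin pair over 5 kb. Points are libraries and lines group means, crosslinked left of non-crosslinked. The ratio on the right lies at 2.01 or above in crosslinked libraries and at 1.37 or below in the others, while the shares over 5 kb overlap.

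Contacts over 5 kb were compared on a scale of their own, as CPM of all long-range bin totals, which takes out the overall loss of such contacts in non-crosslinked replicates 3 and 4. The operon bins moved in different directions. The psaI bin 59001 had 726, 377, 241 and 148 long-range contacts in crosslinked libraries, against 507, 381, 30 and 41 in non-crosslinked libraries. Its level was 6412 ± 165 CPM in crosslinked and 5571 ± 552 CPM in non-crosslinked libraries, with no overlap and a log2 change of 0.21 ± 0.0870 (edgeR, adjusted p = 0.0377). The call was lost without non-crosslinked replicates 3 and 4 (log2 change 0.21, edgeR, adjusted p = 0.0501) and under DESeq2 (adjusted p = 0.132). It was also lost without any of crosslinked replicates 1, 3 and 4 and non-crosslinked replicates 1 and 4 (edgeR, adjusted p = 0.0857, 0.0774, 0.0667, 0.269 and 0.0667).

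The cemA-petA bin 61001 had 650, 394, 208 and 140 long-range contacts in crosslinked libraries, against 726, 454, 38 and 74 in non-crosslinked libraries. It was lower in every crosslinked library, at 6001 ± 371 CPM against 7838 ± 913 CPM in non-crosslinked libraries, and fell by 0.33 on the log2 scale (SE 0.0928; edgeR, adjusted p = 0.00496). The call was lost when the bins of the inverted repeat were left out of the fit (log2 change -0.16, edgeR, adjusted p = 0.0947). Contacts with repeat partners stayed in the totals there, and the estimates of all 4 operon bins moved up, that of bin 59001 to 0.38. The call of bin 61001 held at -0.27 without non-crosslinked replicates 3 and 4 (edgeR, adjusted p = 0.00993). Within replicates 3 and 4 its log2 change was -0.63 (edgeR, adjusted p = 0.00921). Bins 60001 and 62001 had overlapping groups and log2 changes of -0.03 and -0.09 (edgeR, adjusted p = 0.835 and 0.355). Long-range totals were called for 67.1% of the 155 bins, 32.3% higher and 34.8% lower, and 64.5% had groups that did not overlap, so 1 higher and 1 lower of 4 is below the share of the map. In crosslinked libraries the order of the long-range levels was bin 60001 (6767 ± 786 CPM), 59001, 61001 and 62001 (5539 ± 294 CPM), where 60001 against 59001 lay within their spread and the next steps, to 61001 and to 62001, were little larger than it. In non-crosslinked libraries it was bin 61001, 60001 (7170 ± 766 CPM), 62001 (5742 ± 526 CPM) and 59001, where 61001 against 60001 and 62001 against 59001 lay within their spread and 60001 stood above 62001 by more than it.

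The ends of the operon were set against each other as the log2 ratio of the petA bin 62001 over the psaI bin 59001. For contacts over 5 kb it was -0.14, -0.18, -0.22 and -0.31 in crosslinked libraries, against 0.19, 0.09, -0.26 and 0.17 in non-crosslinked libraries. Non-crosslinked replicate 3 overlapped with the crosslinked range, and at -0.26 the contrast missed the threshold (exact permutation p = 0.114). It was -0.35 without non-crosslinked replicates 3 and 4. For all contacts with other bins the same ratio turned round, with a difference of 0.48 and groups that did not overlap (exact permutation p = 0.0286).

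Partners of the operon's contacts over 5 kb lay more often in the inverted repeat and less often in the small single copy region after crosslinking. The repeat, which holds the ribosomal RNA genes and ycf2, took 34.1, 31.4, 32.1 and 29.1% of them in crosslinked libraries, against 26.0, 23.1, 17.3 and 19.7% in non-crosslinked libraries. The groups did not overlap, and the means were 31.7 ± 2.08% in crosslinked and 21.5 ± 3.83% in non-crosslinked libraries (SD, n = 4), a difference of 10.1 percentage points (exact permutation test, adjusted p = 0.0429). The small single copy region, which holds most ndh genes, took 9.08, 10.8, 9.93 and 12.6% in crosslinked libraries, against 15.2, 17.2, 21.1 and 22.0% in non-crosslinked libraries. Here too the groups did not overlap, with a difference of -8.26 percentage points (exact permutation test, adjusted p = 0.0429). The large single copy region took 57.7 ± 0.649% in crosslinked and 59.6 ± 1.49% in non-crosslinked libraries (exact permutation test, adjusted p = 0.0571).

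Both shifts were present at either depth. The repeat share differed by 8.18 percentage points within replicates 1 and 2 and by 12.1 within replicates 3 and 4, and the small single copy share by -6.25 and -10.3. Without non-crosslinked replicates 3 and 4 they were 7.10 and -5.59. The sparsest library, non-crosslinked replicate 3, had 133 contacts over 5 kb, and there the 95% Wilson interval of a region's share extended up to 8.48 percentage points from it, for counting error alone. The same shifts were found for the 19 other blocks of the large single copy region, with a median of 8.76 for the repeat and -8.42 for the small single copy region, and the operon differed from their median by less than its spread (exact permutation, adjusted p = 0.8 for each). How reads from the 2 repeat copies were placed is not given in the sources used here.

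Bin by bin, the psaI bin showed the widest gap in the repeat share. This share was 35.0, 32.6, 35.7 and 34.5% in crosslinked libraries, against 22.7, 15.0, 3.33 and 22.0% in non-crosslinked libraries, where replicate 3 rests on 30 contacts. The difference of 18.7 percentage points compared with 5.56 at bin 60001, 9.17 at bin 61001 and 7.74 at bin 62001 (exact permutation tests, adjusted p = 0.049 for all but bin 60001, which had 0.19). The psaI bin's share in the large single copy region was lower by 10.8 percentage points, while those of the other 3 bins differed by 0.84, 0.07 and 1.15 (exact permutation tests, adjusted p = 0.049 for the psaI bin and 0.617 or more for the others). In the small single copy share the gap was -7.92 at the psaI bin, -6.40 at bin 60001, -9.25 at bin 61001 and -8.89 at bin 62001. The repeat gaps were 15.6, 3.56, 6.41 and 3.35 percentage points in the order of the bins without non-crosslinked replicates 3 and 4. The difference between the bins was not tested.

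**Figure D4:**
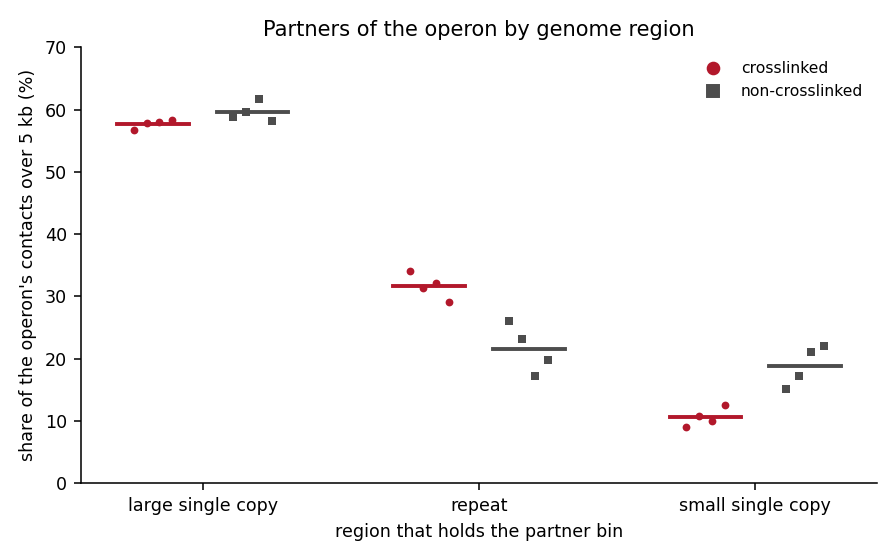
Share of the operon's contacts over 5 kb, in percent, whose partner lies in each region of the genome. Points are libraries and lines group means, crosslinked left of non-crosslinked. The repeat share lies at 29.1% or above in crosslinked libraries and at 26.0% or below in the others, and the small single copy share the other way round.

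By partner, the genome was cut into 39 blocks, a first one of 3 bins and 38 of 4, with the operon as 1 block. Contacts of the operon with 10 of its 38 partner blocks changed, 3 higher and 7 lower, against 30.0% called among the 741 pairs of different blocks (9.85% higher, 20.1% lower). The largest estimated decrease was with the adjoining block 55001, which holds rbcL and accD (log2 change -2.05 ± 0.803, edgeR, adjusted p = 0.0401). Its groups overlapped, and without non-crosslinked replicates 3 and 4 the log2 change was 0.03 (edgeR, adjusted p = 0.964). Among the partners whose groups did not overlap, the largest decrease was with block 123001, which holds ndhH, rps15 and ycf1 in the small single copy region. It had 44, 25, 12 and 8 contacts with the operon in crosslinked libraries, against 103, 88, 4 and 17 in non-crosslinked libraries. In CPM every crosslinked library lay below every non-crosslinked one, and the contact fell by 1.70 on the log2 scale (SE 0.226; edgeR, adjusted p = 4.78e-12).

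Block 11001, with atpA, atpF, atpH and atpI for ATP synthase subunits, had 49, 28, 13 and 9 contacts in crosslinked libraries, against 84, 67, 7 and 13 in non-crosslinked libraries, and fell by 1.28 (SE 0.232; edgeR, adjusted p = 7.38e-07). Block 111001, with ndhF, rpl32, trnL and ccsA, had 63, 31, 21 and 13 in crosslinked libraries, against 102, 79, 11 and 9 in non-crosslinked libraries, and fell by 1.14 (SE 0.216; edgeR, adjusted p = 2.49e-06). Both had groups that did not overlap in CPM. Smaller decreases without overlap met block 27001, which holds petN, psbM and 4 tRNA genes (log2 change -0.74, edgeR, adjusted p = 0.0035), and block 3001, with matK for the plastid intron maturase and rps16 (log2 change -0.58, edgeR, adjusted p = 0.031).

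Among the increases, block 83001 had the largest. It spans the border of the repeat and holds rps3, rpl22, rps19, rpl2, rpl23, trnI and ycf2, mostly genes of ribosomal proteins. It had 80, 45, 29 and 16 contacts in crosslinked libraries, against 42, 23, 1 and 3 in non-crosslinked libraries. The groups did not overlap in CPM, and the log2 change was 0.75 ± 0.259 (edgeR, adjusted p = 0.0177). Block 47001, with ndhJ, ndhK and ndhC for subunits of the NDH complex, had 140, 86, 47 and 34 in crosslinked libraries, against 90, 49, 3 and 8 in non-crosslinked libraries (log2 change 0.53 ± 0.210, edgeR, adjusted p = 0.0425). Without non-crosslinked replicates 3 and 4 these 2 blocks kept their calls at 0.81 and 0.60, and so did the decreases with blocks 123001, 11001, 111001 and 27001 at -1.59, -1.12, -1.01 and -0.60. Block 3001 lost its call there (-0.45, edgeR, adjusted p = 0.09) and under DESeq2 (adjusted p = 0.115). Block 27001 was not called within replicates 1 and 2 (edgeR, adjusted p = 0.0825) or within replicates 3 and 4 (edgeR, adjusted p = 0.192). Block 83001 lost its call without crosslinked replicate 1 or 2 or non-crosslinked replicate 2 (edgeR, adjusted p = 0.0605, 0.0624 and 0.094). Block 47001 lost it without crosslinked replicate 1, 2 or 4 or non-crosslinked replicate 2 (edgeR, adjusted p = 0.0768, 0.0995, 0.0546 and 0.192), and block 3001 without crosslinked replicate 1, 3 or 4 or non-crosslinked replicate 2 or 4 (edgeR, adjusted p = 0.0524 to 0.106). By region, 1 of 20 partners in the large single copy region rose and 5 fell, 1 of 12 in the repeat rose and 0 fell, and 0 of 4 in the small single copy region rose and 2 fell. The remaining partners straddle a border. The background of 9.85% higher and 20.1% lower among all pairs of different blocks was not split by region. These counts moved with the fit: with only block pairs over 5 kb apart, 4 repeat partners were higher and 0 lower. The large single copy region then had 1 higher and 4 lower, and the small single copy region 0 and 2.

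These partner changes were set against the number of long-range contacts each block had with the whole map. When the long-range totals of both blocks entered the fit as an offset, a setting added after the data were seen, 0 of 34 partners over 5 kb away was called (edgeR; lowest adjusted p = 0.153, and 4 with an unadjusted p under 0.05). Without the offset 6 of the 34 were higher and 6 lower. The background was 0.317% of 631 pairs with the offset and 45.6% without it. With the offset, log2 changes of the operon's partners lay between -0.47 and 0.42, the highest at block 47001. On library totals without TMM, which moved the median of all block pairs to 0.74 against -0.12 with it, 0 of the 38 was called, and the decreases with blocks 27001 and 3001 turned to 0.13 and 0.30.

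**Figure D5:**
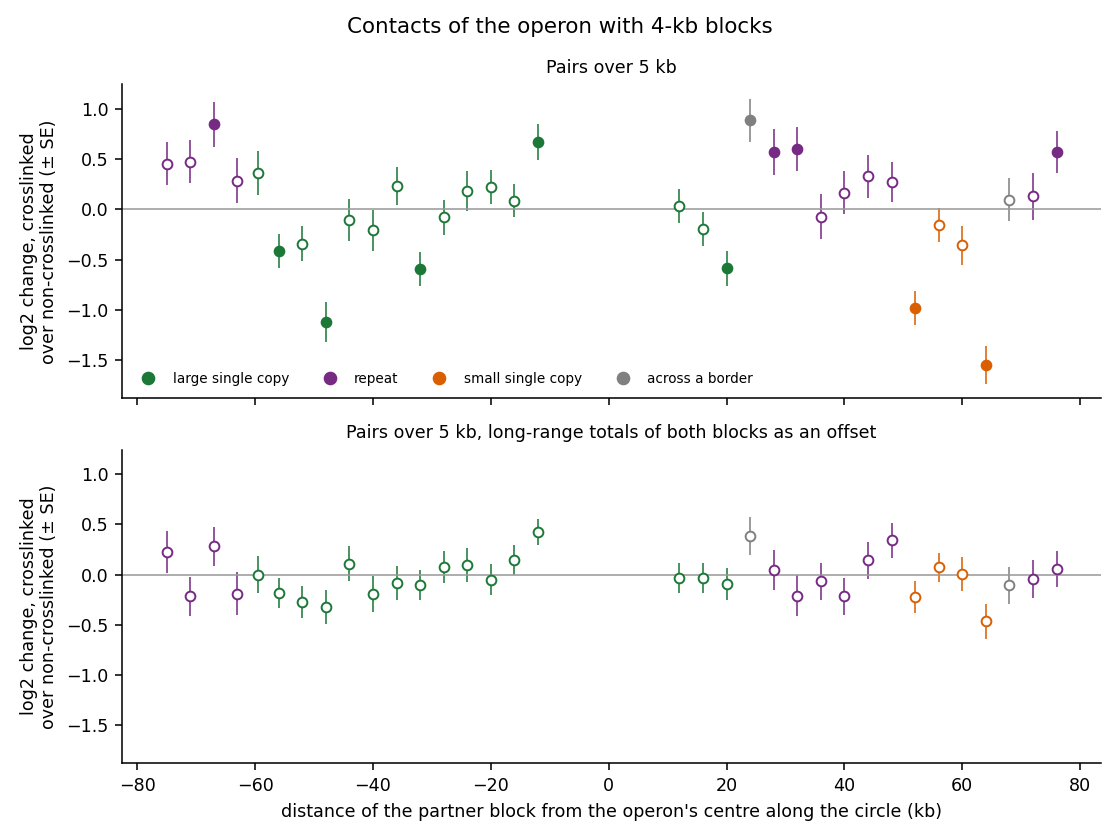
Log2 change of the operon's contacts with 34 partner blocks over 5 kb away, with bars of 1 SE, by the distance of the partner from the operon's centre along the circle. Filled points passed an adjusted p of 0.05, and colours give the genome region. Above, 12 points are filled, and below, with the long-range totals of both blocks as an offset, 0 are filled and the points lie between -0.47 and 0.42.

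Partner bins were also grouped by the function of their genes, after each library was balanced so that every bin had the same long-range total. None of 10 gene lists passed the test for a difference in its contacts with the operon (exact permutation tests over the libraries, lowest p = 0.0571, adjusted p = 0.286). A list with fully separated groups could not have passed unless most of the 10 lists were separated too. The test therefore cannot decide whether a single list differed. Photosystem I genes, the pathway of psaI and ycf4, had log2 observed over expected values of 0.03 ± 0.0810 in crosslinked and 0.16 ± 0.360 in non-crosslinked libraries (SD, n = 4; exact permutation, adjusted p = 0.857). Cytochrome b6f genes, the complex of petA, had -0.03 ± 0.121 in crosslinked and -0.23 ± 0.601 in non-crosslinked libraries (exact permutation, adjusted p = 0.857). Ribosomal RNA genes had 0.01 ± 0.205 in crosslinked and -0.45 ± 0.276 in non-crosslinked libraries, and here the groups overlapped. The cytochrome b6f bins shared 126, 86, 44 and 26 contacts with the operon in crosslinked libraries, against 111, 87, 8 and 5 in non-crosslinked libraries.

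The other plastid genes of the same complexes were read at the bins that hold them. Of 11 bins with photosystem I genes outside the operon, 7 were called higher in their contacts with all other bins and 0 lower, with a median log2 change of 0.39, against 22.6% higher, 25.8% lower and a median of -0.02 over all 155 bins. The 7 included the 5 adjoining psaA-psaB bins 37001 to 41001, whose totals share contacts with each other, so they are not 7 separate loci. No ycf3 bin was called in these totals. Bin 41001, which holds part of psaA for a core subunit of photosystem I, rose by 1.18 ± 0.195 on the log2 scale (edgeR, adjusted p = 4.96e-07). In contacts over 5 kb 5 of the 11 were higher and 1 lower, with a median of 0.19, against 32.3% higher, 34.8% lower and a median of 0.05 over all bins. Bin 67001, with psaJ for a small photosystem I subunit and with rpl33 and rps18, had 772, 435, 287 and 157 long-range contacts in crosslinked libraries, against 493, 322, 22 and 35 in non-crosslinked libraries, and rose by 0.54 ± 0.0841 in CPM on the log2 scale (edgeR, adjusted p = 2.85e-05). The other psaJ bin, 66001, did not pass (log2 change 0.10 ± 0.107, edgeR, adjusted p = 0.399). The lower one was bin 44001, with ycf3 (log2 change -0.54 ± 0.0938, edgeR, adjusted p = 8.61e-05).

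Of 7 bins with cytochrome b6f genes outside the operon, 2 were higher and 1 lower in contacts with all other bins (median 0.14), and 1 was higher and 3 were lower over 5 kb (median 0.05). The medians over all bins were -0.02 and 0.05. Over all bins 22.6% were higher and 25.8% lower in contacts with all other bins, and 32.3% and 34.8% over 5 kb. The lower ones included bin 65001, 3 bins past bin 62001, which holds petL and petG for small subunits of the complex. It had 449, 269, 121 and 93 long-range contacts in crosslinked libraries, against 1284, 884, 121 and 138 in non-crosslinked libraries, and fell by 1.99 on the log2 scale in CPM (SE 0.167; edgeR, adjusted p = 4.39e-08). Bin 75001 of petB, for the cytochrome b6 subunit, rose by 0.91 ± 0.235 in contacts with all other bins (edgeR, adjusted p = 0.00085).

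Against other loci the operon's long-range contacts per bin were compared within each library. Relative to the psaA-psaB bins, the log2 ratio was -0.17, -0.18, -0.21 and -0.29 in crosslinked libraries, against 0.07, 0.07, 0.51 and 0.42 in non-crosslinked libraries. The groups did not overlap, and the operon held fewer contacts per bin than psaA-psaB in all crosslinked libraries and more in all non-crosslinked ones. The difference of -0.48 missed the threshold after adjustment over 4 loci (exact permutation p = 0.0286, adjusted p = 0.0571). No locus could have passed unless most of the 4 had this lowest possible p, so the adjustment does not decide on a single locus. It was -0.24 within replicates 1 and 2, -0.72 within replicates 3 and 4 and -0.28 without non-crosslinked replicates 3 and 4. Relative to the 4 bins after the operon, with psbE, petL and petG, the ratio was -0.18 ± 0.0236 in crosslinked and -0.56 ± 0.134 in non-crosslinked libraries (difference 0.38, exact permutation, adjusted p = 0.0571), with a difference of 0.28 without non-crosslinked replicates 3 and 4. Relative to the 4 bins before it, with rbcL and accD, the difference was 0.21 (exact permutation, adjusted p = 0.0762), and relative to petB-petD -0.11 (exact permutation, adjusted p = 0.2). Neither of these 2 separated the groups.

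Near contacts to the 2 sides were set against each other without neighbouring bins. With the 4 bins before it the operon had 124, 87, 62 and 35 contacts in crosslinked libraries, against 83, 42, 4 and 8 in non-crosslinked libraries. With the 4 bins after it the operon had 143, 90, 58 and 31 in crosslinked libraries, against 88, 56, 7 and 8 in non-crosslinked libraries. The log2 ratio of the sides was 0.00 ± 0.168 in crosslinked and -0.33 ± 0.367 in non-crosslinked libraries. Their difference, 0.33, missed the threshold (exact permutation p = 0.171). With neighbouring bins kept it turned to -0.58 (exact permutation p = 0.0286), with the accD to psaI and petA to psbJ pairs included.

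The operon's summed long-range level was 24677, 25312, 25195 and 23694 CPM in crosslinked libraries, against 25481, 25769, 27060 and 26972 CPM in non-crosslinked libraries. The non-crosslinked libraries all lay higher. Of 95 single copy bins compared over the 8 libraries, the most alike on the log2 scale were bin 30001 with trnY and trnE (Pearson r = 0.955), and bins 112001 (r = 0.923) and 111001 (r = 0.910), both of ndhF. These are descriptions over libraries that share depth and scaling.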

How the data were processed

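Raw contact counts per pair of 1 kb bins were deposited by the authors in 1 table with a column for each of the 8 libraries, per the file headers. Per the submitters' processing notes, Trim Galore 0.4.1, Juicer and the TAIR10 assembly were used. Filters on read pairs and the placement of reads from the repeat are not given in the sources used here. Columns were matched to samples by name. Genes were placed in bins with a RefSeq gene table of TAIR10.1, whose coordinates are not printed. The repeat was located from the anti-diagonal of the map, and distances are circular, to the nearer repeat copy ("over 5 kb" is long-range).

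Counts were tested over the whole map with edgeR 4.0.16 (quasi-likelihood test, TMM, filterByExpr with a minimum count of 10, Benjamini-Hochberg adjustment, threshold 0.05) in R 4.3.3, in separate fits for bin pairs, bin totals, long-range totals and block pairs. A CPM value is a count scaled to the TMM library size of its own fit. Shares and ratios were tested by exact permutation of the 8 libraries (70 assignments, two-sided). The scripts were tested on simulated data. Alternatives were DESeq2 1.42.0, other scalings and filters, leaving out libraries, depth classes and a replicate block. Libraries held 351828 to 708524 contacts in total, and operon pairs over 5 kb a mean of 0.231 to 4.78 contacts each, which limits single pairs. These means did not follow the totals. The lowest was in non-crosslinked replicate 3 (357017 contacts) and the highest in crosslinked replicate 1 (543800 contacts). Named were the operon's bins, every tested operon pair, the 5 largest increases and decreases among called partner blocks without overlap, and the 3 most alike single copy bins. Members and gene lists were chosen with earlier results of these data known. Same-numbered libraries deviated together with r = 0.67, 0.10, -0.02 and 0.33 over bin pairs, so the numbers were not taken to pair libraries. No sequence is printed, since no genome was used here.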

Additional observations from a re-analysis of the deposited data

Results flagged for a closer look

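Of 100 groups of 4 library values tested, 3 held a library far from the other 3 of its group, where chance gives about 1 in 20. In the operon's balanced contacts with RNA polymerase genes, crosslinked replicate 1 had a log2 observed over expected value of 0.0854, against 0.0123 to 0.0234 in the other crosslinked libraries. In the log2 ratio of long-range contacts per bin of the operon over the 4 bins before it, crosslinked replicate 4 had -0.24, against -0.04 to -0.02 in the others. In the long-range level of the psaI bin 59001, crosslinked replicate 2 had 6164 CPM, against 6480 to 6508 CPM in the others.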

How the results depend on the processing

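Of the 7 called operon bin pairs, 1 was also called with no filter on low counts, where 4 operon pairs were called in all, and 0 with libraries scaled on contacts over 5 kb, where the pairs 60001 to 61001 and 61001 to 62001 turned to -0.74 and -0.32 on the log2 scale. Of the 2 called long-range bin totals, 1 was called under DESeq2, under the replicate block, within replicates 1 and 2, within replicates 3 and 4, with repeat bins left out and without non-crosslinked replicates 3 and 4, 0 with same-bin counts as an offset, and 1 to 2 when 1 library was left out. Of the 10 called partner blocks, 0 were called on library totals without TMM, where blocks 27001 and 3001 turned to 0.13 and 0.30, 5 within replicates 1 and 2, 0 with the long-range totals of both blocks as an offset, 7 under the replicate block, and 4 to 10 when 1 library was left out, with the 4 reached without crosslinked replicate 1. The partner blocks called in all numbered 4 to 12 when 1 library was left out, with the 12 reached without non-crosslinked replicate 1. With all contacts in place of those over 5 kb, the contrast of bin 62001 over bin 59001 was 0.48 and 3 loci passed in place of 0, and with neighbouring bins kept the flank ratio was -0.58. The near over far difference was 1.17 under the replicate block, 1.24 without non-crosslinked replicates 3 and 4, and 1.08 to 1.30 when 1 library was left out. The inside over border difference was 1.41 under the replicate block, 1.14 within replicates 1 and 2, 1.68 within replicates 3 and 4, 1.11 without non-crosslinked replicates 3 and 4, and 1.28 to 1.53 when 1 library was left out. In permutation tests, 3 against 4 libraries, 4 against 2 and 4 paired differences cannot go below 0.0571, 0.133 and 0.125, so their p-values do not bear on stability. Under the replicate block the calls of bin 59001 over 5 kb and of blocks 47001 and 3001 were lost (edgeR, adjusted p = 0.0875, 0.0739 and 0.0972). The cause of these changes was not tested. The 3 bin totals stayed at 3 called under the replicate block, and 2 to 3 were called when 1 library was left out. Few long-range contacts in non-crosslinked replicates 3 and 4 limit all results over 5 kb. On library totals without TMM the calls over the whole map split into 160 higher and 62 lower bin pairs, 42 and 28 bin totals, 66 and 46 long-range totals and 22 and 3 block pairs, against 131 and 103, 35 and 40, 50 and 54, and 73 and 149 with TMM.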

Other observations

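In a fit of all bin pairs with no filter on low counts, 4 operon pairs were called, against 1.56% of 12089 pairs (edgeR). Beside the psaI-ycf4 to ycf4-cemA and the petA to psbE pairs these were bins 55001 and 60001, which join rbcL, the large subunit of Rubisco, to ycf4 and cemA. They had 14, 8, 4 and 3 contacts in crosslinked libraries, against 2, 0, 0 and 0 in non-crosslinked libraries (log2 change 1.76 ± 0.479, edgeR, adjusted p = 0.026). The other was a pair of bin 59001 with bin 126001 in the small single copy region, with 1, 0, 0 and 0 contacts in crosslinked libraries, against 6, 8, 0 and 2 in non-crosslinked libraries (log2 change -1.49 ± 0.439, edgeR, adjusted p = 0.0451). Of the 29 operon pairs at 2 to 5 kb, 24 had a positive log2 change, and 11 had an unadjusted p under 0.05, all 11 of them higher in crosslinked libraries. Among all 864 pairs of that distance 84.1% had a positive log2 change and 34.8% had an unadjusted p under 0.05 and were higher, so the operon's counts lie near the shares of the map. Of 576 operon pairs over 5 kb, 47 had an unadjusted p under 0.05, against 12.9% of all 10832 such pairs. Of these operon pairs 1 was called, against 25 called higher and 69 called lower among the 10832.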
